A study of Homo sapiens with 6 samples.

Results

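The axon guidance ligands and receptors were examined in maps of 3 transcription factors: HAND2, MEIS2 and TCF4. The cells were SK-N-BE(2), a human neuroblastoma line in long use. The members are the protein-coding genes whose symbol starts with SEMA, PLXN, EPHA, EPHB, EFNA, EFNB, ROBO or UNC5, together with SLIT1, SLIT2, SLIT3, NRP1, NRP2, NTN1, NTN4 and DCC, and they number 70 of the 19970 protein-coding genes on chromosomes 1 to 22 and X. They comprise 20 semaphorins, 9 plexins, 2 neuropilins, 9 ephrins, 14 Eph receptors, 3 slits, 4 robos, 2 netrins and 5 netrin receptors (DCC and UNC5A to UNC5D). UNC50 and UNC5CL match only the letters of the rule and are no netrin receptors, and EFNA4-EFNA3 is a read-through gene that shares its span with EFNA4 and EFNA3. Binding was measured by CUT&Tag, where a transposase guided by an antibody tags the DNA around the bound protein. There were 2 libraries with an antibody to HAND2, 2 with an antibody to MEIS2 and 1 with an antibody to TCF4, all from untreated cells as far as the labels say, plus an IgG control library without a list of its own. The labels do not say whether replicates are separate cultures, so their spread may be technical only. TCF4 values have no replicate check.

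Axon guidance cues steer growing axons and migrating neural crest cells by attraction or repulsion. Semaphorins signal through plexins, with neuropilins as co-receptors for the secreted class; ephrins are membrane-bound ligands of the Eph receptor tyrosine kinases; slits are secreted repellents read by robos; and netrins act through DCC and the UNC5 receptors. HAND2 is a basic helix-loop-helix factor of the sympathetic lineage, TCF4 is an E protein that pairs with such factors, and both are known to bind DNA at E-boxes (CANNTG). MEIS2 is a homeodomain factor of the TALE class, whose known core site is TGACAG.

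HAND2 replicates 1 and 2 gave 30410 and 33484 usable peaks, MEIS2 replicates 1 and 2 gave 9595 and 13871, and TCF4 gave 30704. Summit pile-ups had medians of 34 and 41 fragments (HAND2), 22 and 13 (MEIS2) and 60 (TCF4), so the MEIS2 lists rest on the fewest fragments. All 13876 peaks deposited for MEIS2 replicate 2 carry the word Flag in their names and none of replicate 1 does, although the labels give both the same antibody. The MEIS2 libraries are therefore given side by side throughout. A fold is the authors' value for a peak, its summit pile-up over the local background; it describes a peak within its own list and is not compared as a level between lists. The 95% intervals come from the exact Poisson distribution of the pile-up and cover counting error only. The local background is given as IgG fragments, the number of control fragments it corresponds to. This number was worked out from fold and pile-up with a unit estimated for each list, and was not counted in the control library. The TCF4 list does not name its control, and IgG is taken for it. The median background per list was 7.0 and 8.0 (HAND2), 10.8 and 2.08 (MEIS2) and 14.0 (TCF4). That of MEIS2 replicate 2 stood at the lowest background of its list.

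A few annotated starts had summits directly in the 250 bases before them, and these are printed to show the DNA under those peaks. They are the starts with summits of at least 2 libraries in that stretch and no other annotated start of the gene within 1 kb, plus a start of PLXNC1 that a strong HAND2 peak spanned; a start over 2000 bp inside the gene's 5′ end is called internal. The sequences are from RefSeq (GRCh38.p14, the build of the peaks), 5′ to 3′ along the gene, ending at the base before the start. Capitals mark E-boxes (CANNTG, the same on both strands) and the MEIS core TGACAG or CTGTCA.
PLXNA2 (chr1:208244385-208244634, minus strand): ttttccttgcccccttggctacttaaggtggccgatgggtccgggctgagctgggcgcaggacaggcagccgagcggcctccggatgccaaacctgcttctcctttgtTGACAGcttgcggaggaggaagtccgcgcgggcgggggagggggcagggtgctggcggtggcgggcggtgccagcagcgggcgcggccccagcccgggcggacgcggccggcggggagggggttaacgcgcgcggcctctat
EPHB3 (chr3:184561535-184561784, plus strand): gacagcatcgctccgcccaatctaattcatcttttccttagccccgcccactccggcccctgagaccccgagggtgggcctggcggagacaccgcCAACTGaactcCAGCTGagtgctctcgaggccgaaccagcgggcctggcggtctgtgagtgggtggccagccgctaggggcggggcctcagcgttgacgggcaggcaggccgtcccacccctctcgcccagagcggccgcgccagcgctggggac
ROBO1, internal start (chr3:79019460-79019709, minus strand): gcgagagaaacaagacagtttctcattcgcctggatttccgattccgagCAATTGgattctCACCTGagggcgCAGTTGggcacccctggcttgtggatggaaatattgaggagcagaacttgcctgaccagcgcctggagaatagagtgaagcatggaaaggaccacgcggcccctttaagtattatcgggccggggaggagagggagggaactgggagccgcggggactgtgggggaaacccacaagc
SEMA3C, internal start (chr7:80919052-80919301, minus strand): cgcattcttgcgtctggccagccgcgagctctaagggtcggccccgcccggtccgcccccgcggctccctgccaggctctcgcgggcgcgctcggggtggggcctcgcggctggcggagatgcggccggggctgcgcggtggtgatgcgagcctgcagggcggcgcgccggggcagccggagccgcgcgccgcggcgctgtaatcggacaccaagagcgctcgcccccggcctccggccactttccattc
PLXNC1, internal start (chr12:94262369-94262618, plus strand): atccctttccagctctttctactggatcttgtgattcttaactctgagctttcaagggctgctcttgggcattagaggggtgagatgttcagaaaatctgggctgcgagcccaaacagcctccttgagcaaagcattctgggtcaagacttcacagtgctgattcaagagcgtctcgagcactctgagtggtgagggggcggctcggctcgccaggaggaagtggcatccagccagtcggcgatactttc

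The EPHB3 window held 2 E-boxes, which begin 155 and 144 bp before the start. The ROBO1 window held 3, at 201, 189 and 177 bp, and that at 189 bp reads CACCTG. The PLXNA2 window held a TGACAG and no CANNTG, and the SEMA3C and PLXNC1 windows held none of these motifs. Among 92 member starts with such a window, 54.3% held CANNTG, against 58.1% of 22034 starts of all protein-coding genes. CATCTG or CAGATG stood in 8.70% of the member windows and 10.2% of all windows, CACCTG or CAGGTG in 16.3% and 17.1%, and TGACAG or CTGTCA in 10.9% and 12.2%, so the members' shares of every motif searched lay slightly under those of all starts. A match in these letters is a description and not a site. Starts and strand came from the same table, which matched 61 of the 70 members; EFNB3, EPHA10, NRP1, NTN1, SEMA3A, SEMA6A, SEMA6B, UNC5B and UNC5D were not matched.

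At gene ends, the axon guidance genes had peaks slightly more often than genes at large in every list. A gene was counted where a peak overlapped the 1 kb on either side of an end. HAND2 peaks reached an end of 20 members (28.6%, against 20.6% of all genes) in replicate 1 and of 22 members (31.4%, against 27.8%) in replicate 2. Both replicates had one at 17 members (24.3%, against 18.8%). MEIS2 peaks reached an end of 9 members (12.9%, against 11.5%) in replicate 1 and of 2 members (2.86%, against 2.18%) in replicate 2. SLIT3 alone was in both MEIS2 sets (1.43%, against 1%), with the peaks at opposite ends of the gene. TCF4 peaks reached an end of 45 members (64.3%, against 53.9%). At 6 members, EFNA5, EPHB3, NRP1, SLIT3, UNC5A and UNC5C, both HAND2 replicates, MEIS2 replicate 1 and TCF4 all had a peak at an end (8.57%, against 7.32%). No list had a peak at an end of 22 members (31.4%, against 42.7%), which included all 4 robos, both netrins, DCC, UNC5D and 8 of the 14 Eph receptors.

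**Figure D1:**
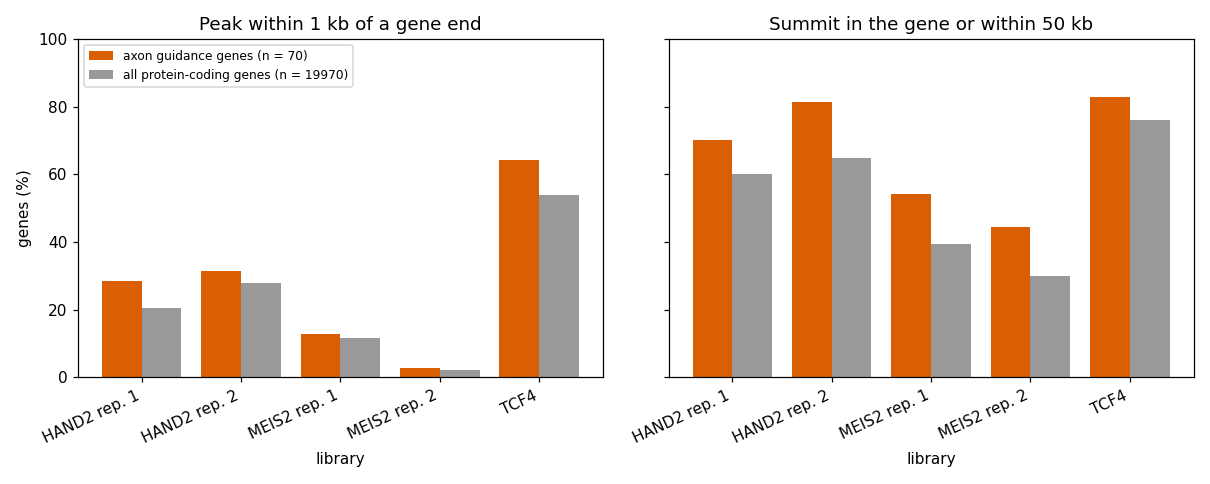
Share of axon guidance genes (orange) and of all protein-coding genes (grey) with a peak within 1 kb of a gene end (left) and with a summit in the gene or within 50 kb (right), in percent of genes, for each library. All orange bars are higher than the grey ones, by little for MEIS2 at gene ends (12.9% against 11.5% in replicate 1) and by most for HAND2 replicate 2 nearby (81.4% against 64.7%).

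Where the strand was known, TCF4 peaks were more frequent at both ends of members than of all genes. For HAND2 the members' share at the 5′ end was slightly over that of all genes in replicate 1 and under it in replicate 2, and at the 3′ end it was higher in both, on few genes. Of 61 such members, 12 and 14 had a HAND2 peak at the 5′ end in replicates 1 and 2 (19.7% and 22.95%, against 18.4% and 25.4% of 15812 genes), and 6 and 5 had one at the 3′ end (9.84% and 8.20%, against 5.2% and 6.6%). TCF4 peaks stood at the 5′ end of 40 members (65.6%, against 52.9%) and at the 3′ end of 15 (24.6%, against 12.3%). MEIS2 replicate 1 had 7 members at the 5′ end and 1 at the 3′ end (11.5% and 1.64%, against 10.6% and 2.18%), and replicate 2 had 0 and 1 (0% and 1.64%, against 1.4% and 1.01%).

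In the wider neighbourhood, summits in the gene or within 50 kb were more frequent around members than around all genes in every list. HAND2 summits lay near 49 and 57 members in replicates 1 and 2 (70.0% and 81.4%, against 60.2% and 64.7%), and near 46 in both (65.7%, against 57.4%). MEIS2 summits lay near 38 and 31 members (54.3% and 44.3%, against 39.3% and 29.8%), and near 18 in both (25.7%, against 16.7%). TCF4 summits lay near 58 members (82.9%, against 76%). Members are long genes, with a median length of 54.7 kb against 24.2 kb for all genes, so the stretch searched is longer for them. Per 100 kb of the stretch searched, the median member had 1.56 and 2.22 HAND2 summits in replicates 1 and 2, against 0.797 and 0.903 over all genes, and 2.63 TCF4 summits, against 1.37. For MEIS2 the median per 100 kb was 0.368 in replicate 1, against 0, and 0 in replicate 2 for members and all genes alike. All 5 lists had summits near 18 members (25.7%, against 15.1%), and none had any near DCC, EPHA3, EPHA5, EPHA7 and EPHB6 (7.14%, against 16.7%). DCC is a netrin receptor and the other genes are Eph receptors.

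**Figure D2:**
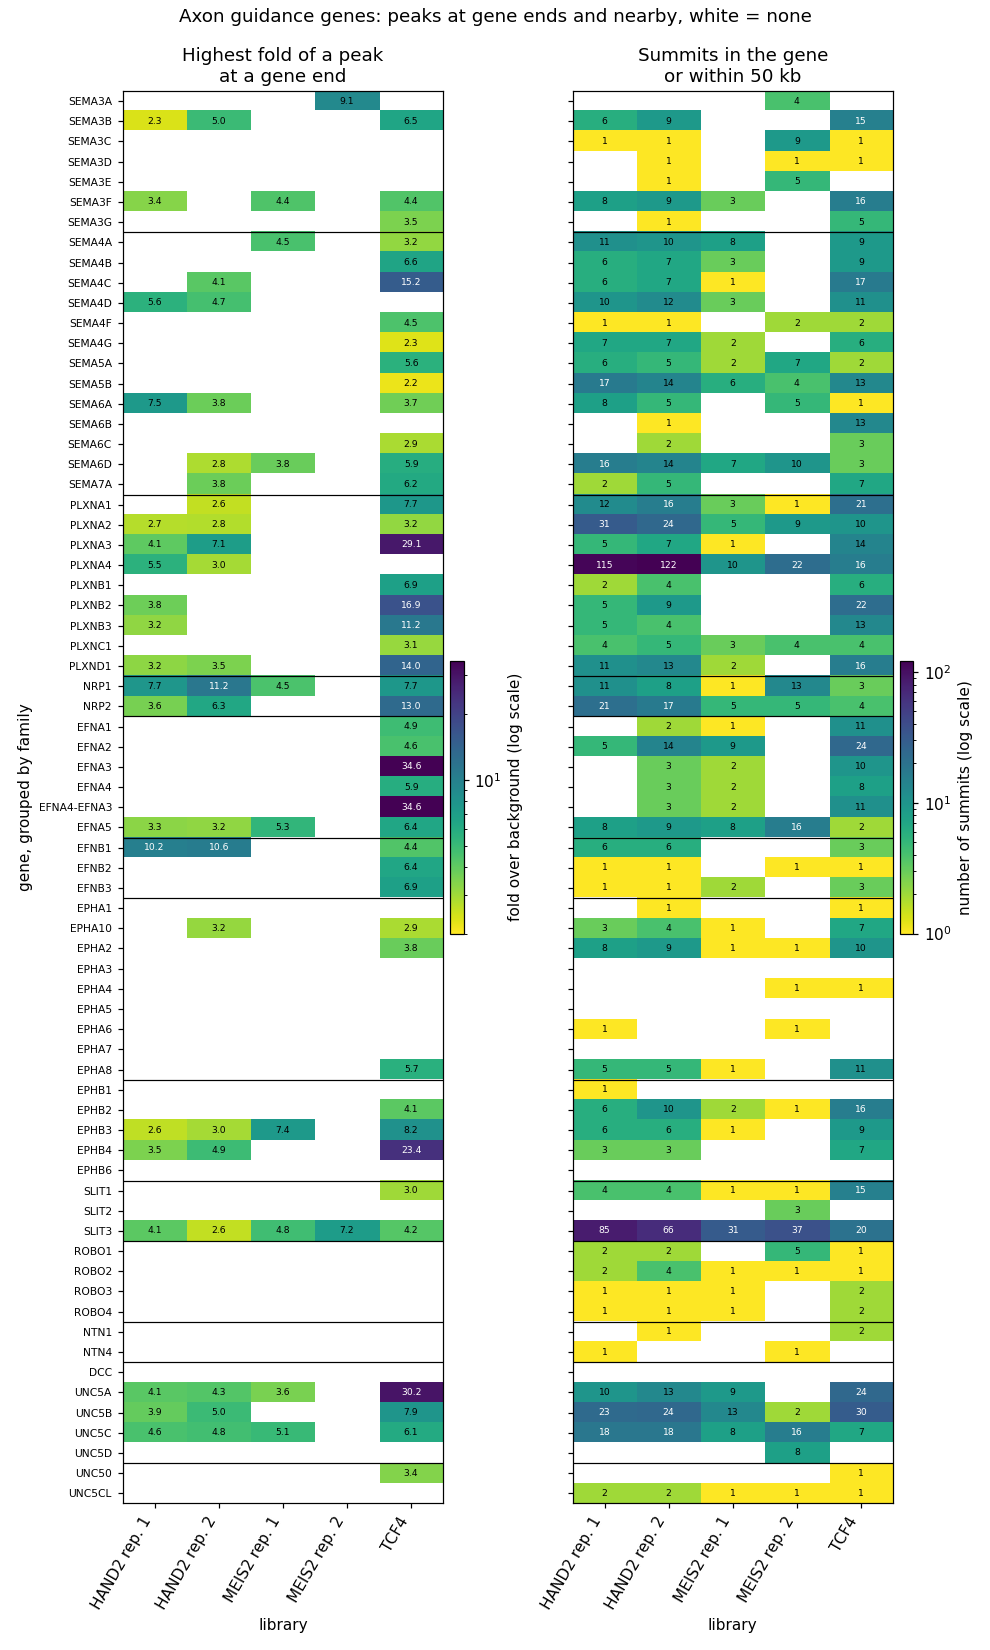
Every axon guidance gene (rows, grouped by family) in every library (columns): on the left the highest fold of a peak at a gene end, on the right the number of summits in the gene or within 50 kb, both on log colour scales with the values written in and white for none. PLXNA4 (115 and 122 HAND2 summits) and SLIT3 (85 and 66) stand out on the right, and the robo rows are empty on the left.

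Among the ligands, the 7 class 3 semaphorins, secreted cues that act through neuropilins and plexins, had HAND2 peaks at the ends of 2 in replicate 1 and 1 in replicate 2 (20.6% and 27.8% of all genes had one). SEMA3B, a secreted semaphorin, was the only member of the class with a peak of both HAND2 replicates at an end, at folds of 2.35 and 4.98 and with a TCF4 fold of 6.48. SEMA3F, a ligand of NRP2, had a MEIS2 replicate 1 peak of fold 4.403 at its 3′ end, with 3.37 in HAND2 replicate 1 and 4.36 for TCF4. These SEMA3F peaks rested on pile-ups of 7, 13 and 14 fragments, the fewest among the end peaks of their lists at members. A TCF4 peak of fold 39.5 (34.8 to 44.6) stood 30.2 kb before SEMA3F, and HAND2 peaks of fold 6.98 and 8.996 had summits 30.3 and 30.2 kb before the gene. SEMA3A, the classic repellent of sensory and sympathetic axons, SLIT2 and UNC5D were the members with summits of MEIS2 replicate 2 and of no other list (4.29%, against 2.94%). The SEMA3A peak at an end had a fold of 9.07 (5.32 to 14.6) from a pile-up of 15. SEMA3C and SEMA3E, secreted semaphorins, had 9 and 5 summits of MEIS2 replicate 2, with none of replicate 1. The strongest of SEMA3C had a fold of 16.4 (11.1 to 23.5), and no other list had a peak there.

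All 13 membrane semaphorins had summits of HAND2 replicate 2 and of TCF4 nearby (64.7% and 76% of all genes did). A TCF4 peak stood at an end of 11 of them (53.9% of all genes had one). SEMA4D, the ligand of plexin B1, had HAND2 peaks at its 3′ end of fold 5.58 and 4.67 in replicates 1 and 2. SEMA6A, a transmembrane semaphorin that binds A-class plexins, had HAND2 folds of 7.49 and 3.81, but these strongest peaks lay at opposite ends of the gene. SEMA4C, a ligand of plexin B2, had a TCF4 peak of fold 15.2 (13.5 to 17.2) at its 3′ end, where HAND2 replicate 2 had 4.14 and replicate 1 had no peak. SEMA4A and SEMA6D had MEIS2 replicate 1 folds of 4.55 and 3.85 at their 5′ ends, with TCF4 folds of 3.18 and 5.85. Inside SEMA5B, which encodes a semaphorin with thrombospondin repeats, both HAND2 replicates and MEIS2 replicate 1 had summits on nearly the same base, 92.0 kb from the start, at folds of 23.6, 21.7 and 18.8. The TCF4 peak at that gene of fold 42.5 (37.5 to 48.1) lay at 87.9 kb, where HAND2 replicate 2 had 18.5. SEMA4G had the third-highest MEIS2 replicate 1 fold near a member, 19.8, but its summit lay 45.7 kb beyond the gene inside SFXN3.

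All 9 ephrins had a TCF4 peak at an end (53.9% of all genes did), although EFNA3, EFNA4 and their read-through gene are not independent cases. HAND2 peaks of both replicates stood at an end of 2 ephrins, EFNA5 and EFNB1 (18.8% of all genes had such peaks). EFNB1, an X-linked B-type ephrin, had end folds of 10.2 (8.06 to 12.8) in HAND2 replicate 1, the highest of any member in that list, and of 10.6 (8.44 to 13.1) in replicate 2, where only NRP1 was higher with 11.2. Their summits, 1008 and 1024 bp past the 3′ end, lay just outside the 1 kb window that the peaks themselves reached. EFNA3, EFNA4 and their read-through gene are A-type ephrins within about 24 kb of chromosome 1, so they share peaks. One TCF4 peak at the 3′ end of EFNA3 (chr1:155084249-155086948) had a fold of 34.6 (32.8 to 36.5) and a pile-up of 1391. Its local background of 49.99 IgG fragments was well over the list's median of 14.0, and the part of that in the peak was not tested. EFNB2, an arterial ephrin, had a HAND2 summit 12.1 kb inside the gene at folds of 21.1 and 16.9.

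EFNA5, a repellent ephrin of topographic maps, was the ephrin with end peaks of both HAND2 replicates (3.29 and 3.20), MEIS2 replicate 1 (5.32) and TCF4 (6.43). The HAND2 and TCF4 summits lay 1332 to 1337 bp inside the 5′ end, and the MEIS2 summit lay 499 bp before it. A further span 1.94 kb before its start (chr5:107672243-107673842) held peaks of all 5 lists, at folds of 7.86 and 9.10 (HAND2), 6.19 and 4.94 (MEIS2) and 10.5 (TCF4). The summits lay within 148 bp. In and around the gene there were 8 and 9 HAND2 summits, 8 and 16 MEIS2 summits and 2 TCF4 summits. EFNA2 had 24 TCF4 summits within 50 kb but only 5 inside the gene, and its strong HAND2 peaks (26.2 and 24.7) had their summit 49.96 kb beyond the gene, at the limit of the search.

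SLIT3, a secreted repellent that signals through robos, was the only member with peaks of all 5 lists at its ends (1.43%, against 0.701%). At the 5′ end the folds were 4.13 and 2.60 in HAND2 replicates 1 and 2, 4.78 in MEIS2 replicate 1 and 4.24 for TCF4, while the MEIS2 replicate 2 peak, of fold 7.17, lay at the 3′ end. The end peaks were weak beside those inside the gene. SLIT3 had 85 and 66 HAND2 summits, 31 and 37 MEIS2 summits and 20 TCF4 summits, which ranked it 5 and 10, 3 and 2, and 399 among all genes. The gene is 639.4 kb long, and per 100 kb searched it had 11.5 and 8.93 HAND2, 4.19 and 5.004 MEIS2 and 2.70 TCF4 summits.

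Inside SLIT3, 8 spans held peaks of all 5 lists, out of 25 near any member and 1059 in the genome. The span at chr5:168764317-168767032, 535.1 kb from the 5′ end, had folds of 38.7 and 35.4 (HAND2), 38.4 and 28.2 (MEIS2) and 4.01 (TCF4), with the 5 summits within 126 bp. The MEIS2 peaks ranked 25 and 120 in their lists. At the next span (chr5:168769112-168774941) the order was different, with folds of 39.2 and 41.3 (HAND2), 14.5 and 8.73 (MEIS2) and 63.7 (TCF4), where the TCF4 peak ranked 42 in its list. Thus the strongest MEIS2 and the strongest TCF4 peaks of the gene lay some kb apart, and both were overlapped by strong HAND2 peaks. Of the 31 and 37 MEIS2 peaks at SLIT3, 22 of replicate 1 (71.0%, 52.0 to 85.8%) overlapped replicate 2 and 20 of replicate 2 (54.1%, 36.9 to 70.5%) overlapped replicate 1, against 24.6% and 16.8% over the whole lists.

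SLIT1 and SLIT2, the other slits, had far fewer HAND2 summits than SLIT3. There were 4 in each replicate at SLIT1, against a median of 1 over all genes, and 0 at SLIT2, a gene of 368.7 kb. SLIT1 had 15 TCF4 summits, the strongest with a fold of 37.7 (35.02 to 40.6) at 44.8 kb from the start, where HAND2 had folds of 7.68 and 9.07. The netrins were nearly free of peaks. NTN1, the founding netrin, had a HAND2 replicate 2 summit of fold 2.71 and 2 TCF4 summits of fold 6.04 and 4.98, and NTN4 had a HAND2 replicate 1 summit of fold 8.53 and a MEIS2 replicate 2 summit of fold 11.9.

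Among the receptors, all 9 plexins, which carry semaphorin signals into the cell, had HAND2 and TCF4 summits nearby. Of all genes, 57.4% had summits of both HAND2 replicates nearby and 76% had TCF4 summits. End peaks of both HAND2 replicates stood at 4 plexins (18.8% of all genes had such peaks). PLXNA3, an A-class plexin, had folds of 4.07 and 7.09 for HAND2 and 29.1 (25.9 to 32.5) for TCF4 with summits 1099 to 1251 bp inside its 5′ end. PLXND1, a receptor for SEMA3E, had 3.25 and 3.53 for HAND2 and 14.0 for TCF4 at its 5′ end. PLXNA4, described next, had HAND2 folds of 5.53 and 2.95 at its 3′ end. PLXNA2, which pairs with neuropilins, had 2.74 and 2.77 for HAND2 and 3.18 for TCF4 over the promoter printed above, with the summits of HAND2 replicate 2 and TCF4 at 200 and 207 bp before the start. In PLXNB2 the TCF4 peak of fold 16.9 reached the 5′ end from a summit 5805 bp away, and 13 of the gene's 22 TCF4 summits lay in other genes of its neighbourhood. PLXNB3, a B-class plexin, had a TCF4 fold of 11.2 at its 3′ end. PLXNA1, also of the A class, had 21 TCF4 summits and HAND2 peaks of fold 24.7 and 23.04 whose summits lay 45.3 and 44.9 kb away inside CHCHD6.

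PLXNA4, an A-class plexin that conveys SEMA3A repulsion in sympathetic and sensory neurons, held the most HAND2 summits of all members. It had 115 and 122 in replicates 1 and 2, of which 106 and 112 lay inside its 525.3 kb, and ranked 2 among all genes in both lists. It had 10 and 22 MEIS2 summits and 16 TCF4 summits, ranking 68 and 18, and 797. Per 100 kb this came to 18.4 and 19.5 HAND2 summits, the highest densities of any member, and 2.56 TCF4 summits. Of the replicate 1 peaks, 100 (87.0%, 79.4 to 92.5%) were overlapped by replicate 2, so most were called again.

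The strongest HAND2 peaks in PLXNA4 had folds of 62.3 (55.0 to 70.2) in replicate 1 at 149.2 kb from the 5′ end and 64.5 (58.1 to 71.5) in replicate 2 at 172.7 kb, ranking 83 and 38 in their lists. The span around the second (chr7:132473920-132476686) held peaks of all 5 lists, with folds of 56.4 and 64.5 (HAND2), 16.8 and 7.83 (MEIS2) and 5.26 (TCF4), and the summits lay within 94 bp. Few HAND2 peaks of the gene met TCF4. Only 15 of 115 (13.04%, 7.49 to 20.6%) in replicate 1 and 14 of 122 (11.5%, 6.42 to 18.5%) in replicate 2 were overlapped by a TCF4 peak, against 44.3% and 49.7% over the whole HAND2 lists. All 16 TCF4 peaks were overlapped by both HAND2 replicates, against 43.0% and 52.9% of all TCF4 peaks. For HAND2 peaks met by TCF4, other members lay on both sides of the whole-list shares. In replicates 1 and 2, TCF4 overlapped 20% and 27.3% of HAND2 peaks at SLIT3 and 25.8% and 33.3% at PLXNA2. At NRP2 the shares were 23.8% and 29.4%, and at UNC5C 33.3% in each. EFNA5 and NRP1 were below as well. The shares were over those of the lists at UNC5A (100% and 92.3%), PLXNA1 (83.3% and 93.75%) and UNC5B, described below. Peaks within a gene are not independent, and these shares carry counting error only.

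PLXNA4 and SLIT3 together held 200 of the 529 HAND2 replicate 1 peaks near members (37.8%) and 188 of 546 in replicate 2 (34.4%). Their part of the MEIS2 peaks was 41 of 157 in replicate 1 (26.1%) and 59 of 197 in replicate 2 (29.9%), and of the TCF4 peaks 36 of 474 (7.59%). HAND2 summits near axon guidance genes were thus concentrated in these genes, which were picked as the members with the most HAND2 summits. The part of TCF4 was not taken over the members with the most TCF4 summits, so the spread of the factors is not compared. PLXNA2, with 31 and 24 HAND2 summits, UNC5B with 23 and 24, and both genes above were the members with 20 or more in each replicate (5.71%, against 1.02%).

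**Figure D3:**
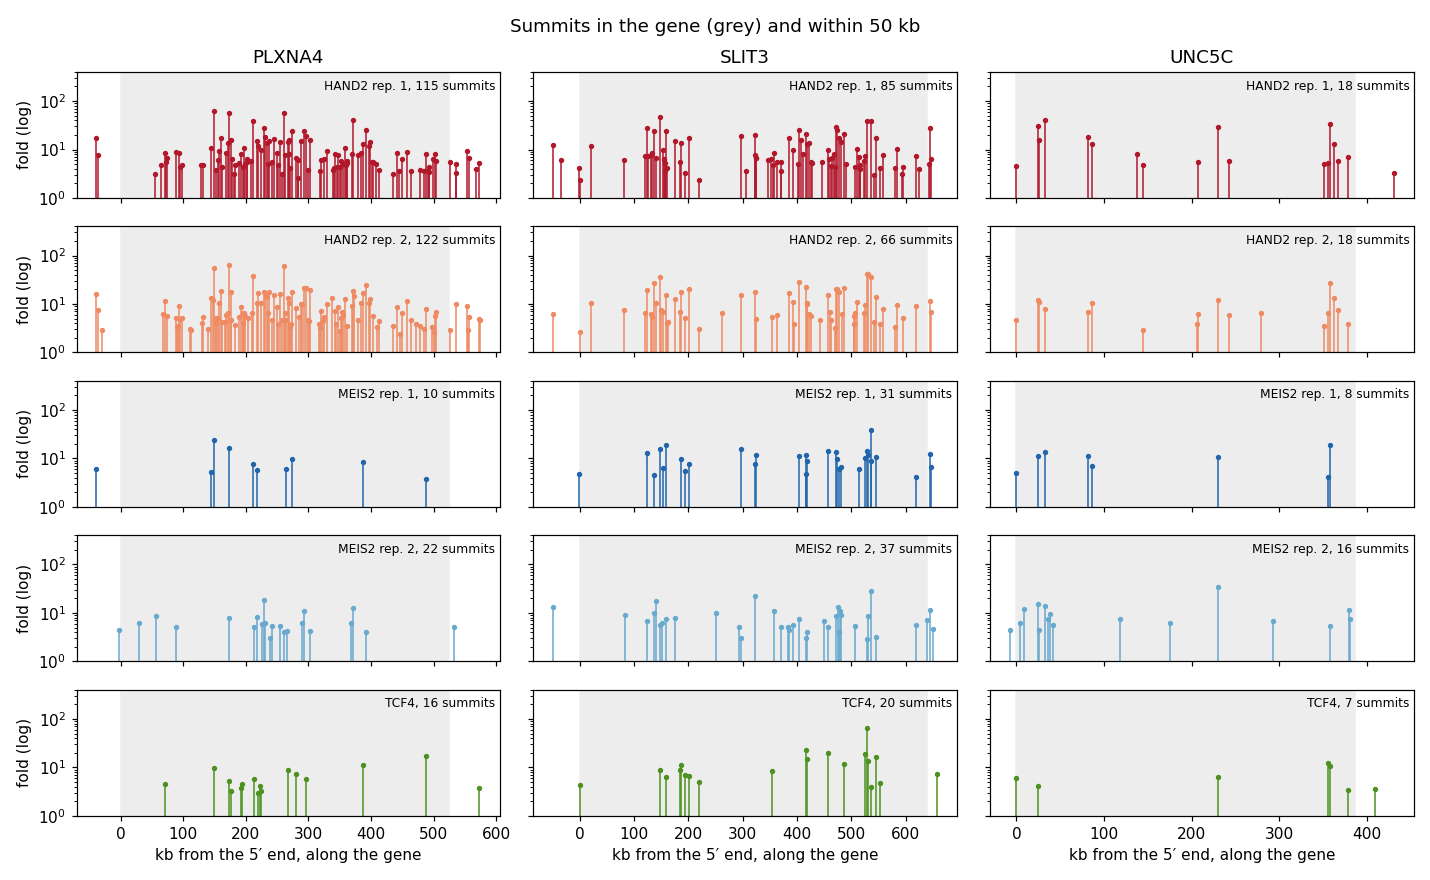
Summits in PLXNA4, SLIT3 and UNC5C and within 50 kb of each, by distance from the 5′ end along the gene in kb (the gene in grey) and by the authors' fold on a log axis, with a row for each library. PLXNA4 is dense in HAND2 summits (115 and 122) and sparse in TCF4 (16), and in SLIT3 strong peaks of all libraries gather around 528 to 535 kb from the 5′ end.

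Both neuropilins, the co-receptors of secreted semaphorins, had end peaks of both HAND2 replicates and of TCF4 (18.8% and 53.9% of all genes did). NRP1 had folds of 7.74 (6.16 to 9.61) and 11.2 (9.30 to 13.5) in HAND2 replicates 1 and 2, 4.50 in MEIS2 replicate 1 and 7.69 for TCF4, with all 4 summits 403 to 762 bp outside the end with the higher coordinate. MEIS2 replicate 2 had no peak there, yet it had 13 summits around the gene, against 1 of replicate 1. NRP2 had 3.58 and 6.29 for HAND2 and 13.03 for TCF4 within 121 bp of its 5′ end. Stronger HAND2 peaks, of fold 29.4 (25.8 to 33.4) and 25.3 (22.1 to 28.7), had their summits at the same base 5.003 kb inside NRP2, and MEIS2 replicate 1 had 9.43 there. The gene had 21 and 17 HAND2 summits against 4 of TCF4.

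Of the 9 EphA receptors, none had end peaks of both HAND2 replicates (18.8% of all genes did) and 3 had a TCF4 peak at an end (53.9% of all genes did), with folds of 2.88 at EPHA10, 3.84 at EPHA2 and 5.69 at EPHA8. EPHA3, EPHA5 and EPHA7, receptors of A-type ephrins with gene lengths of 374.5, 350.9 and 179.5 kb, had no summit of any list within 50 kb. EPHA2, the EphA receptor with the most HAND2 summits (8 and 9), had folds of 7.53 and 8.06 at 17.4 to 17.5 kb before its start. Higher HAND2 folds, of 12.03 and 15.2, lay near EPHA8, but their summits were 35.7 to 35.8 kb before that gene inside ZBTB40. A TCF4 peak of fold 29.6 (26.3 to 33.3) stood 19.9 kb before EPHA2, where HAND2 had 6.81 and 6.49.

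EPHB3 and EPHB4, receptors of B-type ephrins, were the EphB genes with end peaks of both HAND2 replicates (18.8% of all genes had such peaks). Over the EPHB3 promoter printed above, the folds were 2.63 and 2.95 for HAND2, 7.42 (5.45 to 9.87) for MEIS2 replicate 1 and 8.24 (6.82 to 9.86) for TCF4. The summits of HAND2 replicate 1, MEIS2 replicate 1 and TCF4 lay within 43 bp of the start, and that of HAND2 replicate 2 lay 344 bp before it. This was the highest MEIS2 replicate 1 fold at any member's end. EPHB4 had folds of 3.51 and 4.94 for HAND2 and 23.4 (20.9 to 26.1) for TCF4 at its 3′ end, with all 3 summits 272 to 275 bp past it. EPHB2 had a span with all 5 lists 98.1 kb inside the gene, at folds of 6.63 and 7.86 (HAND2), 4.99 and 6.68 (MEIS2) and 10.7 (TCF4). EPHB6, a kinase-dead Eph receptor, had no peak of any list nearby.

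The 4 robos had no peak at the ends of the gene and 1 to 4 HAND2 summits nearby in each replicate. ROBO3 and ROBO4 shared their only HAND2 peak, of fold 2.01 and 2.41 in replicates 1 and 2. It lay inside ROBO3, on a local background of 53.0 and 59.0 IgG fragments. ROBO2, which spans 1743 kb, had a HAND2 summit of fold 7.76 and 8.38 at 1231 kb from its 5′ end. At the internal ROBO1 start printed above, HAND2 folds were 2.81 and 2.496, with summits 168 and 125 bp before the start, and a TCF4 peak of fold 2.66 had its summit 218 bp after it. These peaks were near the bottom of their lists and had a local background of 19.0 and 19.99 IgG fragments for HAND2 and 27.0 for TCF4. MEIS2 replicate 2 had 5 summits in ROBO1, the strongest of fold 10.8, and replicate 1 had none.

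For HAND2 and TCF4, the netrin receptors divided into occupied and empty genes. UNC5A, UNC5B and UNC5C, receptors for the repulsive arm of netrin signalling, each had end peaks of both HAND2 replicates and of TCF4. Of all genes, 18.8% (HAND2) and 53.9% (TCF4) had such peaks. DCC, the attractive receptor, had no summit of any list in or around its 1196 kb. UNC5D had 8 summits of MEIS2 replicate 2 and no other, the strongest of fold 17.6 (12.04 to 24.8). UNC5A had 4.15 and 4.29 for HAND2, 3.56 for MEIS2 replicate 1 and 30.2 (27.2 to 33.3) for TCF4 at its 5′ end. UNC5C had 4.57 and 4.78 for HAND2, 5.07 for MEIS2 replicate 1 and 6.10 for TCF4 at its 5′ end, with the 4 summits 408 to 454 bp before the start. The local background there was 27.0 to 28.0 IgG fragments in all 4 lists, over each list's median; the part of that in these peaks was not tested.

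UNC5B had 23 and 24 HAND2 summits, 13 and 2 MEIS2 summits and 30 TCF4 summits, the most TCF4 summits of any member. The strongest TCF4 peak near a member lay inside it (chr10:71276458-71277898), with a fold of 70.6 (65.2 to 76.4), a pile-up of 623 and rank 30 in the list. HAND2 replicate 1 had a fold of 35.5 and MEIS2 replicate 1 of 15.8 with summits 5 and 69 bp from it. The HAND2 replicate 2 peak that overlapped it had a fold of 11.2 and its summit 1982 bp away, and no peak of that list near UNC5B had a fold over 19.3. In contrast to PLXNA4, 21 of the 23 HAND2 replicate 1 peaks at UNC5B (91.3%, 72.0 to 98.9%) and 21 of the 24 of replicate 2 (87.5%, 67.6 to 97.3%) were overlapped by TCF4. UNC5B was picked out for its many TCF4 summits and PLXNA4 for its many HAND2 summits, so the choice itself bears on this contrast. Peaks within a gene are not independent, and no test was run.

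UNC5C had 18 HAND2 summits in each replicate, 8 and 16 MEIS2 summits and 7 TCF4 summits. Inside it, 3 spans held peaks of all 5 lists. At chr4:95190329-95191963 the folds were 32.9 and 27.1 (HAND2), 18.9 and 5.38 (MEIS2) and 10.8 (TCF4). At chr4:95317238-95319740 they were 28.7 and 12.1 (HAND2), 10.96 and 34.2 (MEIS2) and 6.29 (TCF4), so the MEIS2 replicates ordered these spans in opposite ways. The fold of 34.2 (26.3 to 43.8) was the highest of MEIS2 replicate 2 near a member and ranked 62 in its list. At chr4:95524172-95525104 they were 30.9 and 12.2 (HAND2), 11.2 and 15.3 (MEIS2) and 4.23 (TCF4). The strongest HAND2 replicate 1 peak of the gene, of fold 39.9 (32.6 to 48.4), lay 32.4 kb from the start and was not met by TCF4. HAND2 replicate 2 had a fold of 7.91 there, far below its highest in the gene (27.1), and the MEIS2 replicates had 13.8 and 14.2.

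Several members have annotated starts inside the gene, which windows at gene ends miss. Of 93 starts of the 61 matched members, 31 in 20 genes lay over 2000 bp from the gene's 5′ end. A peak stood within 1 kb of 10 and 13 of these (HAND2), 6 and 2 (MEIS2) and 16 (TCF4). The share over internal starts of all genes was not taken, so these counts only describe the members. Counted over any annotated start, 19 and 23 members had a HAND2 peak (31.1% and 37.7%, against 20.5% and 27.9%). A MEIS2 peak stood at 9 and 1 (14.8% and 1.64%, against 11.7% and 2.04%) and a TCF4 peak at 46 (75.4%, against 55.7%). The matched members had more starts per gene (93 in 61 genes, against 22155 in 15812). These shares were not adjusted for that.

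The strongest HAND2 peaks at an internal start were those of PLXNC1, the receptor of SEMA7A. Its 5′ end had no HAND2 peak and a TCF4 fold of 3.13, but 114042 bp further in, at the internal start printed above, HAND2 had folds of 39.4 (34.5 to 44.9) and 41.0 (36.2 to 46.2). Both HAND2 summits fell on the same base, 334 bp before that start and so outside the printed window, from pile-ups of 225 and 269 over 6.0 IgG fragments. MEIS2 replicate 1 had a fold of 7.24 (4.39 to 11.4) at 344 bp before the start and TCF4 7.08 (5.38 to 9.15) at 23 bp before it, and MEIS2 replicate 2 had no peak. Internal starts of other members had weaker HAND2 peaks, and some had stronger MEIS2 or TCF4 peaks than PLXNC1. At the SEMA6D start 533416 bp inside the gene the folds were 4.37 and 4.34 (HAND2), 8.36 and 3.11 (MEIS2) and 7.80 (TCF4), and at an internal start of SEMA4B they were 2.99 and 5.24 for HAND2, 8.56 for MEIS2 replicate 1 and 17.4 for TCF4. An internal start of PLXNB2 had 3.66 and 7.24 for HAND2 and 16.9 for TCF4. An internal start of PLXNA4 had 8.46 and 11.5 for HAND2 and 4.64 for TCF4, and the SEMA3C start printed above had 4.27 and 2.56 for HAND2 and 4.43 for TCF4.

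**Figure D4:**
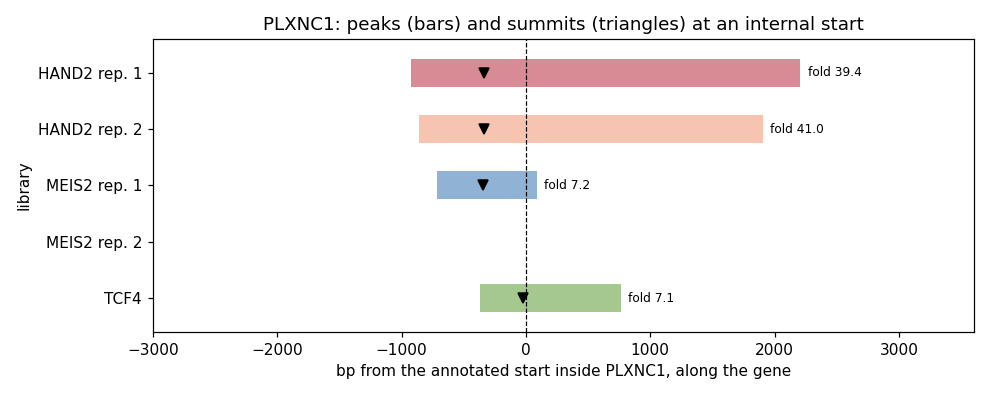
Peaks (bars) and summits (triangles) within 3 kb of the internal PLXNC1 start, in bp along the gene, with a row for each library and the fold beside each peak. The HAND2 summits of both replicates (39.4 and 41.0) lie at 334 bp before the start, next to that of MEIS2 replicate 1 (7.24), and the TCF4 summit (7.08) lies at the start.

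How often peaks near members met those of other factors depended on PLXNA4 and SLIT3, so the shares were also taken without both, a choice made after seeing the data. Of the HAND2 peaks near members, 41.8% (37.5 to 46.1%) in replicate 1 and 48.4% (44.1 to 52.6%) in replicate 2 were overlapped by TCF4, against 44.3% and 49.7% of all HAND2 peaks. Without PLXNA4 and SLIT3 these shares were higher, at 189 of 329 (57.4%, 51.9 to 62.9%) and 232 of 358 (64.8%, 59.6 to 69.8%). Of the MEIS2 replicate 1 peaks near members, 86.6% and 91.1% were overlapped by HAND2 replicates 1 and 2, against 80.8% and 81.5% of all, and without those genes the shares were 82.8% and 89.7%. Of the MEIS2 replicate 2 peaks, 46.2% (39.1 to 53.4%) and 41.1% (34.2 to 48.3%) were overlapped by HAND2 replicates 1 and 2, against 33.8% and 27.7% of all its peaks. Without PLXNA4 and SLIT3 the shares were 31.9% (24.2 to 40.4%) and 28.3% (20.9 to 36.5%), close to those of all peaks. Both genes were picked for their many HAND2 summits and stayed in the shares of all peaks. Members and all peaks were thus not trimmed alike, and the source of the gap was not tested. MEIS2 replicates met each other at 30.6% (23.5 to 38.4%) of replicate 1 and 23.4% (17.6 to 29.9%) of replicate 2 peaks near members, against 24.6% and 16.8% of all. Without those genes the shares were 19.8% and 16.7%, no higher than over all peaks.

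The signalling and partner genes of the same pathway outside the rule, a list of 70 such as FYN, TRIO, ABL1 and the slit effector SRGAP3, had higher counts than the members in most lists. Among the members, HAND2 peaks of both replicates reached an end of 17, MEIS2 peaks of 9 and 2 in replicates 1 and 2, and TCF4 peaks of 45. Among the pathway genes outside the rule these counts were 27 (HAND2), 14 and 0 (MEIS2) and 51 (TCF4). Of all genes, 18.8% (HAND2), 11.5% and 2.18% (MEIS2) and 53.9% (TCF4) had such peaks. Summits of both MEIS2 replicates lay near 18 members and 27 of the other pathway genes (16.7% of all genes). Nearby HAND2 summits were closer in number, at 49 and 57 members and 55 and 56 of the other genes (60.2% and 64.7% of all genes). TCF4 summits lay near 58 members and 64 of the other genes (76% of all genes). The median member had 2.5 and 4 HAND2 summits and 4.5 TCF4 summits, against 3.5 and 5, and 4, for the median gene of the other list. Per 100 kb searched, the HAND2 medians were 1.56 and 2.22 for members, against 1.60 and 1.95 for the other list. For TCF4 they were 2.63 against 1.61, and for MEIS2 0.368 and 0 against 0.460 and 0.311. The other list was thus not higher in HAND2 replicate 2 or TCF4 by this measure.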

How the data were processed

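CUT&Tag peak lists of 5 SK-N-BE(2) libraries were analysed. The submitters' processing notes name bcl2fastq 2.17, Bowtie2 with no version, MACS3 3.0.0a6 and hg38. For tool options, duplicate removal and excluded regions they give nothing. Peaks were called per sample, as the deposited lists show. The deposited score, 10 times the −log10 q, was not used, nor was a further score that the authors added to some lists. The deposited fold, a ratio of summit pile-up to local background, was used as given to describe and rank peaks. The −log10 p that the authors deposited gave, with the fold, the whole pile-up of each peak (relative tolerance 5e-05, found for 100% of peaks); the method was tested on simulated data. The −log10 q served for stricter thresholds, and the deposited summit offset (in bp) for positions.

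Only peaks on chromosomes 1 to 22 and X were used, which dropped 0, 0, 3, 5 and 7. Gene spans were those of RefSeq (GRCh38.p14), and strand and starts from the RefSeq promoter table, which covered 15812 genes. Exons were not used. Overlap needed at least 1 bp. A gene-end window was 1 kb on either side, a neighbourhood the gene plus 50 kb. No test was run: members are given as counts beside all genes. Shares have exact 95% binomial intervals. Named members were, per factor, those with the highest folds at an end (for HAND2 the lower of the replicates), the 5 per list with the most summits or highest fold nearby, the extremes (all lists or none) and the leading HAND2 member of each family. Other members named for an internal start, a span with all lists, a summit count or a contrast within a family were chosen after their values were seen. The members and lists were chosen with earlier results of these data known. Python 3.11.15, numpy 2.4.6, pandas 2.3.3, scipy 1.17.1 and matplotlib 3.10.9 were used.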

Additional observations from a re-analysis of the deposited data

How the results depend on the processing

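Of 70 alternative counts of genes, 52 stayed within 1.5 times the value reported and 18 moved past it. With only the 5000 peaks of highest −log10 q per list, members with an end peak fell to 2 for HAND2 (both replicates), 0 for MEIS2 (both), 7 for TCF4 and 0 for HAND2, MEIS2 replicate 1 and TCF4 together, and members with summits nearby to 21, 9 and 36. At the 5′ end only, the HAND2 count was 11 and the MEIS2 count 0. The MEIS2 end count of 1 became 0 with a 500 bp window, 2 with 2 kb, 0 with merged regions and 0 where both peaks had to share an end, and 2 to 9 with a replicate left out. MEIS2 counts nearby were 31 to 38 with a replicate left out. With both MEIS2 replicates required, the count for all 3 factors was 1. All-gene shares are not given beside these alternative counts. The counts therefore do not show whether the members' standing beside all genes changed. Requiring the same end, counting any annotated start, leaving out UNC50, UNC5CL and the read-through gene, and taking shares of overlapping peaks without PLXNA4 and SLIT3 were chosen after seeing the data. The 1 kb and 50 kb rules cannot assign a peak to a gene, and weak peaks carry most end counts. The MEIS2 lists are the shallowest, so an absent MEIS2 peak may be a matter of depth. No paired analysis was possible because the results come from counts of genes and no test.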

Other observations

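Of the 197 MEIS2 replicate 2 peaks near members, 121 (61.4%) stood at the lowest local background of that list, against 58.8% of all its peaks. The folds of those 121 peaks took only 27 distinct values, since each is set by a small whole pile-up. The members named for this library alone (SEMA3A, SLIT2 and UNC5D) had their strongest peaks at that background.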
